A study of Mus musculus with 36 samples.

Results

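Polr2b, Rest, Noa1 and Igfbp7 are neighbours on mouse chromosome 5, and the counts of these 4 genes, of 21442 genes measured, are described here at each stage of reprogramming. They were chosen by the level of Polr2b, which is raised early in reprogramming of cells that lost Zfp266, together with the genes beside it. The day 3 and day 5 contrasts of knockout (KO) and wild-type (WT) cells were therefore used in the choice, and for these genes they are given as values with no test. The other stages, the changes between WT stages and the genes around the locus were not part of that rule. Even so, the members, gene lists and tests were picked with earlier results of these data known.

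Messenger RNA was sequenced from 36 libraries in 12 groups of 3, which were 6 stages in WT and Zfp266 KO cells of the 129 strain. The study asked what losing Zfp266, a zinc finger protein, does to gene expression along the path from fibroblast to pluripotent cell. WT and KO mouse embryonic fibroblasts (MEFs) were early-passage cells that carried Cas9 at Rosa26 under an EF1α promoter, an MKOS-ires-mOrange cassette (Myc, Klf4, Oct4 and Sox2) that doxycycline switches on, and Nanog-GFP-ires-Puro as reporter. Per the paper, they came from chimeric embryos made by morula aggregation. It describes no sorting of the MEF groups before RNA extraction, so these may hold some host cells of another background. WT MEFs received a lentivirus with a non-targeting guide RNA and KO MEFs one with a Zfp266 guide RNA, so both carried virus and Cas9 and a KO library was a population of edited cells rather than a clone. For the D3, D5 and D7 groups the same MEFs were mixed with wild-type 129 MEFs without Cas9, transduced in the same way and given doxycycline with vitamin C, and cells expressing the cassette were sorted by mOrange at day 3, 5 or 7. Their medium held leukemia inhibitory factor and that of the MEF groups fibroblast growth factor, so the step from MEFs to day 3 includes a change of medium. WT and KO iPSCs were clones grown from sorted Nanog-GFP+ cells without doxycycline and with puromycin. WT ESCs were 3 samples of the parental Cas9 line, and KO ESCs were 3 clones of it made with a Zfp266 guide RNA plasmid. Nothing in the labels says that the 3 samples of a group came from separate embryos, so p-values measure the spread between samples, which may be technical in part.

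Polr2b encodes the second-largest subunit of RNA polymerase II, which forms the catalytic cleft together with the largest subunit, Polr2a, and transcribes all messenger RNA. Rest encodes a zinc finger repressor that keeps neuronal genes silent outside the nervous system and recruits corepressor complexes with histone deacetylase and demethylase activity. It is abundant in pluripotent cells. Noa1 encodes a mitochondrial GTPase required for assembly of the mitochondrial ribosome, and Igfbp7 a secreted protein of the insulin-like growth factor binding family that fibroblasts and vascular cells make.

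In the GENCODE annotation of GRCm38, Rest (ENSMUSG00000029249) lies on the plus strand from 77265491 to 77286432 and Noa1 (ENSMUSG00000036285) on the minus strand from 77294182 to 77310084. Polr2b (ENSMUSG00000029250) follows on the plus strand from 77310147 to 77349324, with 24 merged exons, and Igfbp7 (ENSMUSG00000036256) on the minus strand from 77349240 to 77408041. The 4 genes span 142.6 kb. Noa1 and Polr2b stand head to head, with 62 bases between their starts in GENCODE and 70 in RefSeq. Polr2b and Igfbp7 run towards each other, and their last exons overlap by 85 bases on opposite strands. The 3′ ends of Rest and Noa1 are 7749 bases apart. The library kit kept the strand, but whether the counting used it is not given in the sources used here, so reads from the 85 shared bases could be counted for either gene.

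The shared start of Noa1 and Polr2b is shown because these are the 2 members that would share a promoter and because their counts moved apart in KO cells. The stretch is bases 100 to 1 before the RefSeq start of Polr2b (GRCm38.p6, chr5:77310384-77310483, plus strand). Its first 30 bases lie in the first exon of Noa1 in RefSeq and its last 70 between both starts. GENCODE moves both starts the same way, that of Noa1 from 77310413 to 77310084 and that of Polr2b by 337 bases to 77310147. In GENCODE the whole stretch therefore lies within Polr2b, and the 62 bases between both starts are not part of it. Capitals mark the motifs found.
Noa1 and Polr2b start: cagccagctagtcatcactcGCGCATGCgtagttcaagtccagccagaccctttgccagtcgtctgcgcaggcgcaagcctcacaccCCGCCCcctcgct
The first is an NRF1 core (GCGCATGC), which begins 80 bases before the RefSeq start of Polr2b. It is held on either strand by 2.3% of 32817 RefSeq promoters of 250 bases. The second is a GC box (GGGCGG), read on the minus strand here, which begins 13 bases before that start and is found in 32.7% of promoters. The 250 bases before the RefSeq start of Polr2b have a GC content of 54% and 14 CpG. Over all promoters of that length the medians are 52.4% and 6 CpG, so the GC content is near the median and the CpG count above it.

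Igfbp7 is shown for contrast, as a member that, like Rest, has its own start, and as the one with the largest range of counts. These are bases 250 to 1 before its RefSeq start (GRCm38.p6, chr5:77408046-77408295, minus strand), with GC boxes in capitals.
Igfbp7 start: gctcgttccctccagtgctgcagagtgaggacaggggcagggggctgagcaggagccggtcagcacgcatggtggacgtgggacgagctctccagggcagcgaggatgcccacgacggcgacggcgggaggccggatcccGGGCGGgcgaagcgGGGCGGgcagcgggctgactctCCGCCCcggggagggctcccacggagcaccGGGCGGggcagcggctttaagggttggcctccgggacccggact
It has a GC content of 74% and 26 CpG, with 4 GC boxes and no NRF1 core. Other motifs searched on both strands were the ETS core (CCGGAAG), which 6.9% of promoters hold, the YY1 core with the letters AAGATGG (4.5%), the CCAAT box, searched by those letters (33.8%), and the motif TATAAA (12.4%). None of these was found in the 250 bases before either start. Such matches are descriptions of letters and not of factor binding. Rest and Noa1 were not in the table of promoters.

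Total counts ranged from 19224103 to 39610939 per library, and 0 reads in a library allow up to 3 at 95% confidence, or 2.31 to 5.22 normalised counts. That floor takes account of counting error alone, as PCR copies of a molecule could not be told apart. The Zfp266 transcript was present in every group, with means of 1422 to 2949 normalised counts in WT and 1537 to 3200.0 in KO. Indels made by Cas9 need not lower a transcript, so its count does not check the labels. The 8 fibroblast markers summed to 386640 to 562303 normalised counts in the 6 MEF libraries and to 89.5 to 167 in the 6 ESC libraries. The 8 pluripotent cell markers summed to 19.7 to 30.8 in MEFs, with Dppa3, Utf1 and Tcl1 at 0 in all 6, and to 114451 to 131382 in ESCs. Endothelial and blood markers were low throughout (sums of 284 to 835 and 82.7 to 684). Epithelial markers (5 genes) ranged from 414 to 3033 in KO MEFs and from 1858 to 2134 in WT MEFs.

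Polr2b was present at a high level in every group and varied least of the members, by 2.43-fold between its lowest group, WT MEFs, and its highest, KO cells at day 5. In WT MEFs the 3 libraries had 3004, 3003 and 2976 normalised counts, which are counts divided by the size factor of the library, and in KO MEFs 3432, 3464 and 3371. Every KO MEF library was above every WT one. The log2 fold change (log2FC) of KO over WT was 0.19 (SE 0.06), which did not pass the test (DESeq2 FDR 0.317, unadjusted p 0.00185). In KO MEFs 0.0285% of genes tested were called higher and 0.0143% lower at FDR < 0.05.

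At day 3 the WT libraries had 3780.3, 3959 and 3736 normalised counts of Polr2b and the KO libraries 5985, 6293 and 6192. The group means were 3825 ± 118 and 6157 ± 157 (SD, n = 3). At day 5 the WT libraries had 4454, 4041 and 3917 and the KO libraries 7389, 7532 and 6953, with means of 4137 ± 281 and 7291 ± 302. The KO libraries were apart from the WT libraries on both days, by a margin wider than the spread within either group. The log2FC was 0.69 (SE 0.06), or 1.61-fold, at day 3 and 0.82 (SE 0.06), or 1.76-fold, at day 5. These are the contrasts on which the gene was chosen, so they carry no test. The rank of Polr2b among all genes restates the choice and is given only as a description: at day 3, 315 of 16031 genes tested had a higher log2FC, and at day 5, 486 of 17694 did.

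At day 7 Polr2b stood at 4307, 4279 and 4474 normalised counts in the WT libraries and at 5365, 5771 and 5511 in the KO libraries. The groups remained apart, with a smaller gap. The log2FC was 0.35 (SE 0.06), or 1.27-fold (DESeq2 FDR 1.03e-07). At this stage 13.3% of genes tested were called higher and 16.1% lower, and 4086 of 21020 genes had a higher log2FC than Polr2b. In the pluripotent lines the difference was not found. The iPSC libraries had 4644, 5026 and 5204 in WT and 5062, 4837 and 4169 in KO, and the ESC libraries 4623, 4611 and 4901 in WT and 4550.3, 4681 and 4905 in KO. The groups overlapped in both, with a log2FC of -0.08 (95% interval -0.20 to 0.04, DESeq2 FDR 0.406) in iPSCs and of -0.00 (-0.12 to 0.12, FDR 1) in ESCs. The KO effect at day 7 exceeded that in iPSCs by 0.43 (SE 0.08, FDR 1e-05 for the interaction). It exceeded that in MEFs by 0.16 (SE 0.09), which did not pass the test (FDR 0.206).

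**Figure D1:**
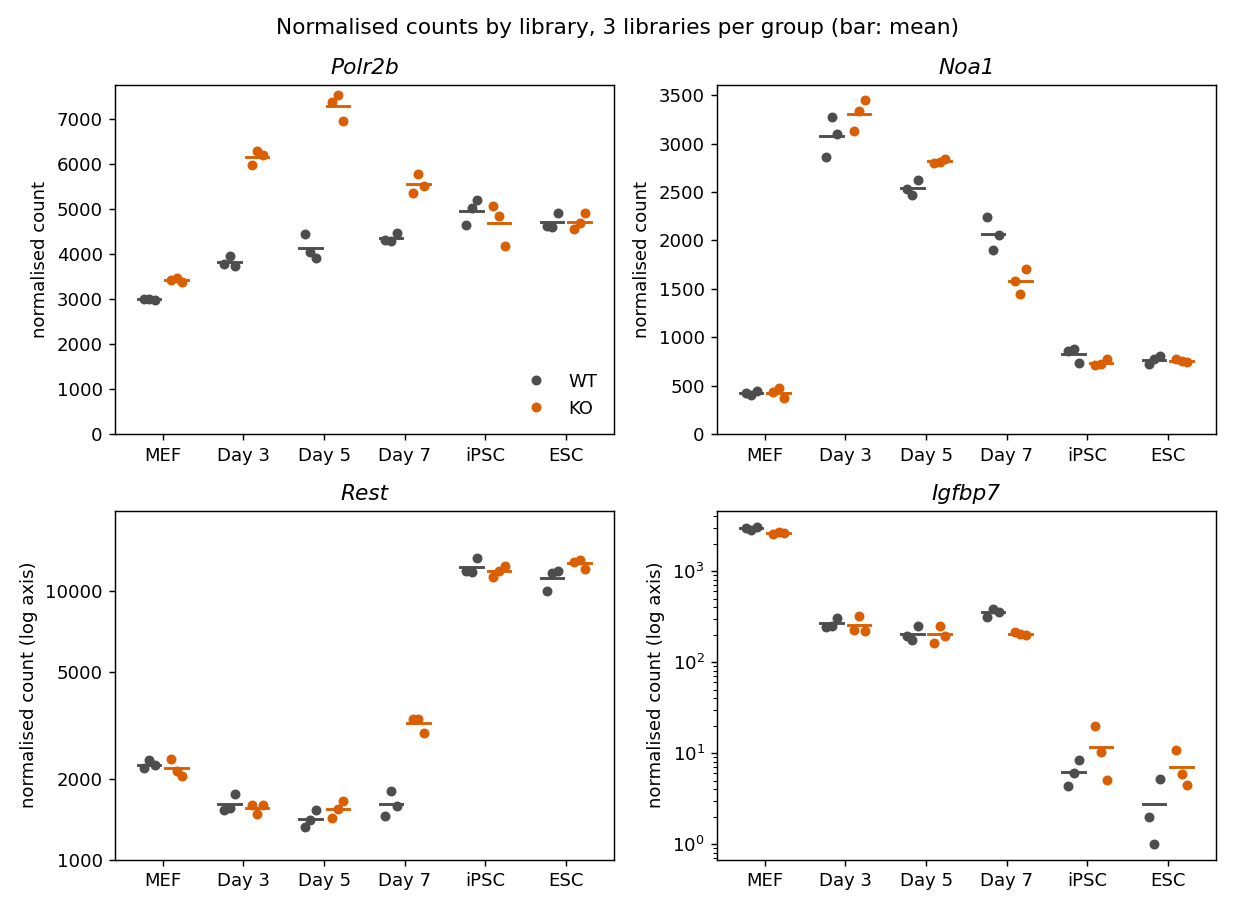
Normalised counts of Polr2b, Noa1, Rest and Igfbp7 in each library by stage, with WT in grey and KO in orange, 3 libraries per group and a bar at the mean; Rest and Igfbp7 are on log axes. The KO libraries of Polr2b lie above the WT ones from MEFs to day 7 and overlap them in iPSCs and ESCs, and the Rest libraries part only at day 7 and, by less, in ESCs.

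Along the WT series Polr2b rose in steps. It was 1.28-fold higher at day 3 than in MEFs (log2FC 0.35, SE 0.06, DESeq2 FDR 2.4e-08), when 33.8% of genes tested were called higher and 37.1% lower. Day 5 against day 3 (0.11, FDR 0.165) and day 7 against day 5 (0.07, FDR 0.419) did not pass, where 12.4% and 13.5% of genes were called higher and 12.7% and 10.7% lower. WT iPSCs were 1.14-fold above day 7 (log2FC 0.19, FDR 0.00279), when 35.8% were called higher and 37.7% lower, but a fit of only those groups gave FDR 0.0878. WT ESCs did not differ beyond the spread from WT iPSCs (log2FC -0.07, FDR 0.537), a comparison in which 1.09% of genes were called higher and 2.11% lower, and were 1.57-fold above WT MEFs (FDR 5.53e-26), where 40.0% were called higher and 39.4% lower. In the order of all 12 groups, KO at day 5, KO at day 3 and KO at day 7 came first and each was apart from the next. Below them the groups from WT iPSCs down to WT day 3 overlapped with their neighbours. Per kb of exon, KO cells at days 3 and 5 had 1319 ± 33.6 and 1562 ± 64.6 normalised counts of Polr2b. WT ESCs, the pluripotent cells at the end of the path, had 1009.6 ± 35.2. The gene was chosen on its KO values at days 3 and 5, so their place in this order restates the choice and is only a description.

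Polr2b works only as part of an enzyme with 11 other subunits, and none of the genes for these passed the test at day 3 or day 5. Polr2b itself has no test on those days. It was chosen for its high level there, so its place above the 11 unselected genes is in part given by the choice. At day 3 their log2FC ranged from -0.08 to 0.07 with a median of 0.01, while the median over all genes tested was 0. None of the 11 passed by DESeq2, by edgeR or at an unadjusted p under 0.05, at a stage when 0.374% of genes were called higher and 0.119% lower. At day 5 the range was -0.18 to 0.20, and again none passed by DESeq2 or edgeR, with 1 at an unadjusted p under 0.05, against 4.72% called higher and 2.43% lower. Polr2a, the largest subunit, went from 7515 ± 148 normalised counts in WT to 7863 ± 284 in KO on day 3 (SD, n = 3). On day 5 its means were 6624 ± 836 and 7591 ± 88.7, a log2FC of 0.20 that did not pass (DESeq2 FDR 0.481). At day 7 no subunit gene was called higher and 3 were lower, against 13.3% and 16.1% of all genes. These were Polr2l (log2FC -0.33, FDR 0.00147), Polr2f (-0.26, FDR 0.019) and Polr2h (-0.19, FDR 0.0374), small subunits that other RNA polymerases share. In iPSCs 5 were lower and none higher, including Polr2d (-0.48, FDR 9.51e-08), Polr2l (-0.55, FDR 5.07e-07) and Polr2g (-0.21, FDR 0.0414), and in ESCs 3 were lower, with Polr2d (-0.45, FDR 1.3e-06) and Polr2j (-0.45, FDR 8.39e-05) first. In these lines 9.72% and 5.82% of all genes were called higher and 6.63% and 4.29% lower. Polr1b and Polr3b, which take the place of Polr2b in RNA polymerases I and III, had log2FC of -0.02 and 0.06 at day 3 and of 0.03 and 0.02 at day 5, and Polr3b was lower at day 7 (-0.16, DESeq2 FDR 0.000766).

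**Figure D2:**
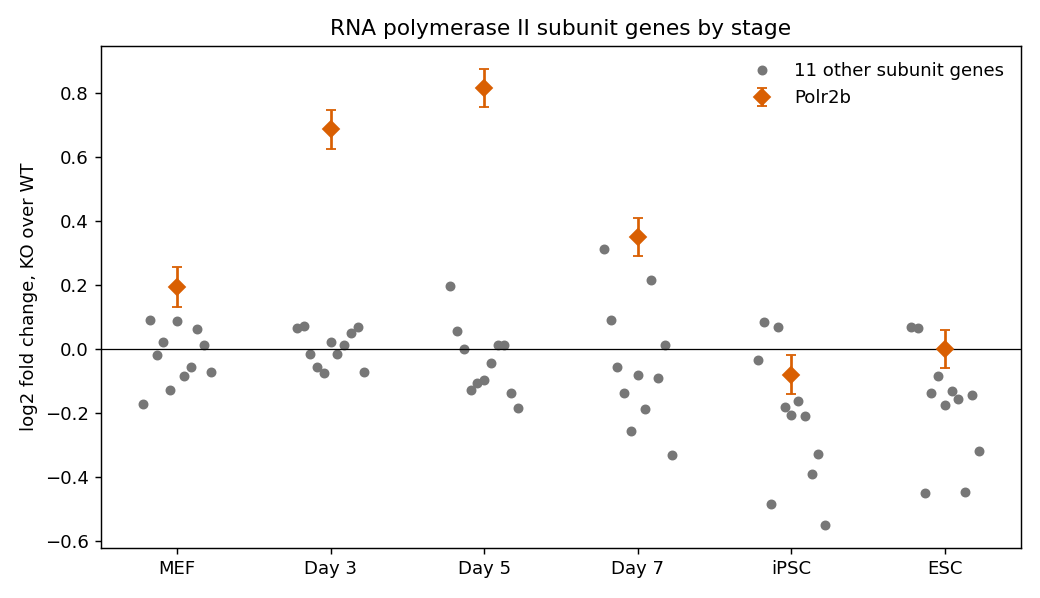
Log2 fold change of KO over WT at each stage for Polr2b (orange diamond, bar ± SE) and for the 11 other RNA polymerase II subunit genes (grey, no error shown). At days 3 and 5, on which Polr2b was chosen, it lies at 0.69 and 0.82 and the others between -0.18 and 0.20. At day 7 Polr2a, at 0.31, is next to Polr2b at 0.35.

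In WT cells most subunits, like Polr2b, were higher at day 3 than in MEFs. Of the 11, 9 were higher and 2 lower, against 33.8% and 37.1% of all genes, with a median log2FC of 0.85 beside 0.35 for Polr2b. Polr2e went from 2234 ± 59.4 to 7491 ± 662 normalised counts (log2FC 1.75, DESeq2 FDR 2.8e-66) and Polr2h from 602 ± 67.1 to 1814 ± 41.9 (1.58, FDR 4.46e-85). From day 7 to iPSCs, when Polr2b was also higher, 3 were higher and 4 lower, against 35.8% and 37.7% of all genes.

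Noa1, the head-to-head partner of Polr2b, had a course of its own. In WT MEFs its libraries had 428, 401 and 440.4 normalised counts and at day 3 they had 2865, 3274 and 3098, a 7.26-fold rise (log2FC 2.86, SE 0.09, DESeq2 FDR 3.65e-231). It then fell at each step, to 2536, 2472 and 2625 at day 5 (log2FC -0.28, FDR 0.00201), 2246, 1902 and 2059.8 at day 7 (-0.30, FDR 0.000923) and 856, 874 and 738 in iPSCs (-1.33, FDR 2.21e-62). ESCs, with 718, 771 and 806, did not differ from iPSCs beyond the spread (-0.10, FDR 0.521) and were 1.81-fold above MEFs (FDR 3.3e-20). The WT groups of MEFs and days 3, 5 and 7 did not overlap with each other.

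In KO cells Noa1 stayed near WT while Polr2b was raised. The KO libraries had 3133, 3335 and 3453 normalised counts at day 3, overlapping with WT (log2FC 0.10, SE 0.07). At day 5 they had 2805, 2814 and 2839, above the 3 WT libraries by a small margin (0.15, SE 0.08). At day 7 the KO libraries had 1583, 1443 and 1700.3 and were below all WT libraries, so Noa1 was 0.761-fold of WT (log2FC -0.39, SE 0.08, DESeq2 FDR 4.65e-06), at the stage when Polr2b was still higher. MEFs (429, 471 and 375 in KO) did not differ (0.00, 95% interval -0.19 to 0.19, FDR 1). The same was so in ESCs (775, 758 and 740.2 in KO, log2FC -0.01, -0.18 to 0.15, FDR 0.946). In iPSCs the KO libraries had 709, 719.6 and 776 (-0.16, FDR 0.171), and the difference passed only without iPS WT replicate 3 (-0.23, FDR 0.0459). The day 7 effect was below that in MEFs by 0.40 (SE 0.12, FDR 0.0116), a test that was lost without MEF KO replicate 2 (FDR 0.0728) or D7 KO replicate 2 (FDR 0.0506), and differed from iPSCs by -0.23 (FDR 0.136). Over all genes, 17.4% had a KO effect at day 7 that differed from that in MEFs and 21.9% one that differed from iPSCs.

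The ratio of Polr2b to Noa1 within a library does not depend on its size factor. In the MEF libraries it was 6.996, 7.46 and 6.74 for WT and 7.99, 7.35 and 8.97 for KO. On day 3 the WT libraries gave 1.32, 1.21 and 1.21 and the KO libraries 1.91, 1.89 and 1.79. On day 5 the values were 1.76, 1.63 and 1.49 for WT against 2.63, 2.68 and 2.45 for KO, and on day 7 they were 1.92, 2.25 and 2.17 against 3.39, 3.999 and 3.24. WT and KO were apart on the 3 days, and the KO libraries had the higher ratio. The mean log2 ratio differed by 0.58 at day 3, 0.67 at day 5 and 0.74 at day 7. Only day 7 was tested among these, with an exact permutation p of 0.1, the smallest that 3 against 3 libraries allow. The log2FC of Noa1 was 0.10 and 0.15 on days 3 and 5, whereas on day 7 Polr2b was higher and Noa1 lower. The ratio overlapped in MEFs (exact p 0.2), iPSCs (6.03 and 6.36, exact p 0.8) and ESCs (6.16 and 6.21, exact p 0.9).

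**Figure D3:**
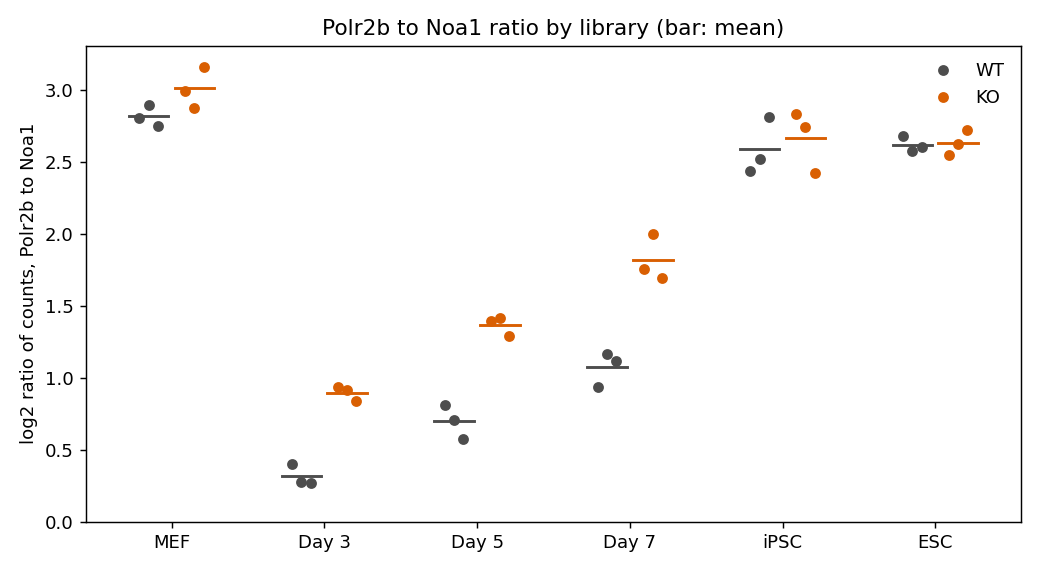
Log2 ratio of Polr2b to Noa1 counts in each library by stage, WT in grey and KO in orange, with a bar at the mean of 3 libraries. KO lies above WT at days 3, 5 and 7, by 0.58, 0.67 and 0.74, and both groups overlap in MEFs, iPSCs and ESCs. Days 3 and 5 are those on which Polr2b was chosen.

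Among 19 other genes for mitochondrial ribosome assembly, the rise of Noa1 at day 3 in WT cells was shared by 16, with a median log2FC of 1.09 against -0.01 over all genes, and none fell, against 33.8% of all genes called higher and 37.1% lower. Mrm3, a methyltransferase of the large ribosomal RNA, went from 210 ± 8.98 to 1031 ± 101 normalised counts (2.30, DESeq2 FDR 2.49e-89). Rbfa, a factor of small subunit assembly, went from 681 ± 32.9 to 2255 ± 88.9 (1.72, FDR 1.2e-78). From day 7 to iPSCs, when Noa1 fell, 10 rose and 5 fell, against 35.8% and 37.7% of all genes, and Mrm3 was among those that fell (-1.56, FDR 4.7e-49). Loss of Zfp266 changed none of the 19 at day 3 or day 5 by DESeq2 or edgeR (0 on each day at an unadjusted p under 0.05). At day 7 4 were lower, Rbfa (-0.35, FDR 0.000379), Mrm3 (-0.39, FDR 0.000687), Nsun4 (-0.40, FDR 0.00326) and Mettl17 (-0.38, FDR 0.0128), and 1 was higher, against 16.1% and 13.3% of all genes.

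Rest differed from Polr2b in both timing and direction of its WT course. In WT MEFs its libraries had 2188, 2349 and 2250.0 normalised counts. They had 1534, 1563 and 1754 at day 3, lower than in MEFs (log2FC -0.48, SE 0.09, DESeq2 FDR 6.6e-08). At day 5 they had 1318, 1403 and 1531 and at day 7 1461, 1799 and 1588, steps that did not pass (FDR 0.0975 and 0.102). Leaving out D5 WT replicate 3 gave the first step FDR 0.0474, and leaving out D7 WT replicate 1 gave the second 0.038. In iPSCs Rest had 11868, 11765 and 13361, which was 7.63-fold above day 7 (log2FC 2.93, SE 0.09, FDR 1.25e-257), and ESCs were alike (10032, 11761 and 11886, log2FC -0.14 against iPSCs, FDR 0.376). The 4 groups of iPSCs and ESCs overlapped in sequence and stood far above all others.

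Of the stages tested, Rest passed the test in KO cells at day 7 alone. The KO libraries then had 3357, 3338 and 2975 normalised counts, apart from WT, and Rest was 1.99-fold higher (log2FC 1.00, SE 0.09, DESeq2 FDR 3.57e-28). At day 3 the KO libraries had 1601, 1475 and 1598 (log2FC -0.05, SE 0.09) and at day 5 1429.7, 1541 and 1653 (0.12, SE 0.09), and both overlapped with WT. The KO effect was -0.05 in MEFs (2373, 2143 and 2053, FDR 0.941) and -0.05 in iPSCs (11346, 11890.1 and 12485, FDR 0.762). In ESCs the KO libraries (12867, 13111 and 12164) were above WT, but the log2FC of 0.18 did not pass (FDR 0.16). The effect at day 7 exceeded that in MEFs by 1.04 (SE 0.12, interaction FDR 1.1e-14) and that in iPSCs by 1.05 (SE 0.12, FDR 1.01e-15). Day 7 KO libraries also had more of the pluripotent cell markers, with sums of 24470.1 to 32346 against 5413 to 9342 in WT and none of the 8 at 0, and their part in the rise of Rest was not tested. Those sums were also apart at day 5 (2712 to 4070 against 1224 to 1473) and overlapped at day 3 (338 to 569 and 343 to 502). At day 3 Dppa5a was at 0 in all 3 WT libraries, while no marker was at 0 in all 3 KO libraries. Whether these sums relate to the counts of Rest or Polr2b was not tested. In such bulk samples more cells of a type and more RNA per cell cannot be told apart.

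**Figure D4:**
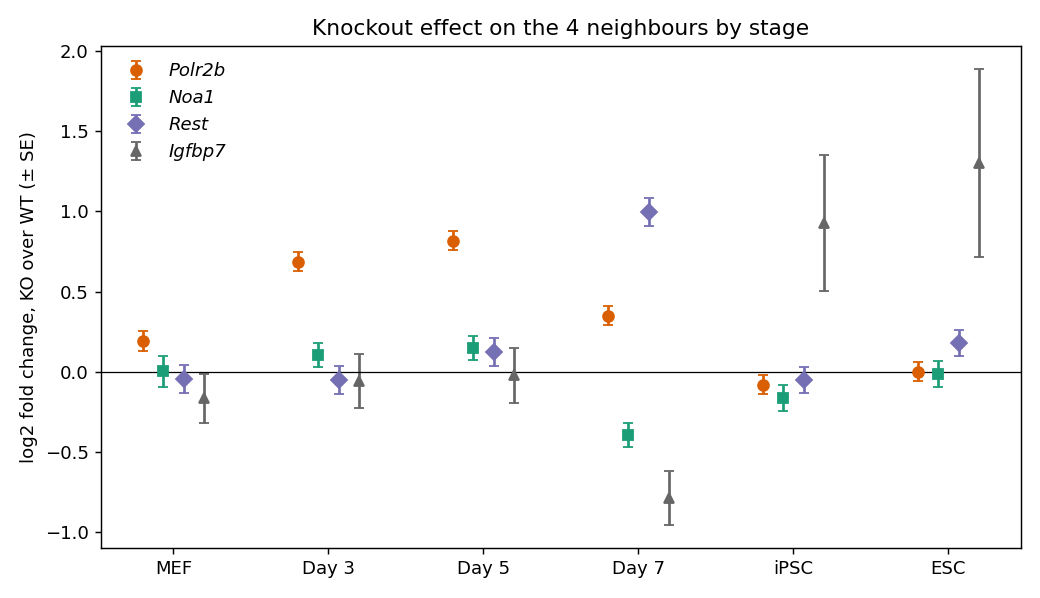
Log2 fold change of KO over WT with its SE for the 4 genes at each stage, from a fit of all 36 libraries. Polr2b lies above the others at days 3 and 5 (0.69 and 0.82), on which it was chosen. At day 7 Rest is highest at 1.00 and Noa1 and Igfbp7 are at -0.39 and -0.79. The large errors of Igfbp7 in iPSCs and ESCs go with counts of 1 to 20 reads.

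Of 13 genes for the corepressors through which Rest acts, 2 were higher and 1 lower in KO cells at day 7, close to the 13.3% and 16.1% of all genes called. Sin3a, a scaffold of histone deacetylase complexes, went from 3014 ± 32.1 to 4034 ± 242 normalised counts (log2FC 0.42, DESeq2 FDR 1.68e-07), Phf21a, a subunit that reads unmethylated histone H3, from 379.6 ± 35.4 to 541 ± 39.9 (0.51, FDR 0.0286), and Rcor3, a paralogue of the corepressor Rcor1, from 276 ± 15.4 to 181 ± 10.0 (-0.61, FDR 2.33e-05). None passed at day 3 or day 5 by DESeq2 or edgeR, with 1 and 2 at an unadjusted p under 0.05. Among 18 neuronal genes that Rest is known to repress, 2 were higher and 3 lower at day 7, also close to those shares. The neuronal tubulin gene Tubb3 fell from 8662 ± 684 to 3294 ± 507 (log2FC -1.40, FDR 4.08e-09) and the adhesion gene L1cam from 106 ± 10.5 to 47.5 ± 16.1 (-1.16, FDR 0.00559). Celsr3, an adhesion receptor of axon guidance, rose from 25.1 ± 5.10 to 73.5 ± 13.9 (1.55, FDR 6.65e-07) and the stathmin gene Stmn3 from 43.0 ± 20.2 to 106 ± 17.3 (1.30, FDR 0.00316). None passed at day 3 or day 5 by either tool or at an unadjusted p under 0.05.

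Along the WT series these lists also held genes of both directions. At day 3, when Rest was lower than in MEFs, 3 of the 18 neuronal genes were higher and 8 lower, against 33.8% and 37.1% of all genes, with Stmn2 rising from 701 ± 16.2 to 19501 ± 523 normalised counts (log2FC 4.80, DESeq2 FDR 4.54e-142), Tubb3 from 749 ± 26.4 to 10280.1 ± 1123 (3.78, FDR 2.3e-65) and Bdnf falling from 1047 ± 106 to 201 ± 16.9 (-2.38, FDR 8.48e-23). From day 7 to iPSCs, when Rest rose, 7 were higher and 6 lower, close to the 35.8% and 37.7% of all genes. Tubb3 fell to 904 ± 212 (-3.26, FDR 1.56e-49), whereas Celsr3 rose to 896 ± 77.5 (5.16, FDR 1.69e-82). Of the corepressors 8 were higher and 3 lower in that step, among them Sin3a (0.95, FDR 1.74e-38) and Rcor1 (-1.36, FDR 2.06e-28).

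Igfbp7 was a gene of the starting fibroblasts. Its libraries had 2953, 2857 and 3086 normalised counts in WT MEFs and 245, 251 and 305 at day 3, which was 11.1-fold lower (log2FC -3.47, SE 0.16, DESeq2 FDR 1.54e-101). Day 5 (192, 173 and 249) did not differ from day 3 (-0.38, FDR 0.0849) except without D5 WT replicate 3 (-0.55, FDR 0.0171). Day 7 (316, 388 and 356) was above day 5 (0.79, SE 0.17, FDR 5.55e-05), and WT iPSCs had 4.32, 6.03 and 8.35, which was 57.1-fold lower than day 7 (FDR 2.34e-60). WT ESCs had 2.01, 1.01 and 5.21, from 1 to 6 reads, at the floor of these libraries.

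In KO cells Igfbp7 was below WT at day 7. The KO libraries had 213, 202 and 199.7 normalised counts, all below WT, for a log2FC of -0.79 (SE 0.17, DESeq2 FDR 3.42e-05). KO and WT overlapped at day 3 (223, 325 and 221 in KO, log2FC -0.06, SE 0.17) and day 5 (162, 252 and 193 in KO, -0.02, SE 0.17), when Polr2b, whose last exon overlaps that of Igfbp7, was raised. KO MEFs (2588, 2695 and 2652) were below WT MEFs, but the log2FC of -0.17 did not pass (FDR 0.84). KO iPSCs had 19.97, 10.4 and 5.05, overlapping with WT (0.93, 95% interval 0.10 to 1.76, FDR 0.12), and passed without iPS KO replicate 3 (1.27, FDR 0.0275). KO ESCs had 10.8, 5.84 and 4.49, from 5 to 12 reads, against 1 to 6 in WT, too few for a fold change to be given. The effect at day 7 was below that in iPSCs by 1.72 (SE 0.45, interaction FDR 0.00179), which was lost without iPS KO replicate 1 (-1.14, FDR 0.113). It was below that in MEFs by 0.62 (SE 0.23, FDR 0.0401), which did not pass by edgeR (FDR 0.106) or in most fits that left out 1 library. The fibroblast markers moved with it at day 7, with sums of 6657 to 21019 in KO and 21409 to 33555 in WT and none of the 8 at 0, and their part in the result was not tested.

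The other insulin-like growth factor genes took the same direction at the first step. Of 9 genes, 8 were lower at day 3 than in WT MEFs and 1 higher, with a median log2FC of -4.82, when 37.1% of all genes were called lower and 33.8% higher. Igf2, a growth factor of fetal tissue, went from 32004 ± 1887 to 623 ± 172 normalised counts (-5.68, DESeq2 FDR 6.87e-93) and its scavenger receptor Igf2r from 55161 ± 1883 to 2272 ± 167 (-4.60, FDR 4.2e-133). In KO cells none of the 9 passed at day 3 or day 5 by DESeq2 or edgeR, with 1 and 2 at an unadjusted p under 0.05. At day 7 3 were lower and none higher, against 16.1% and 13.3% of all genes. These were Igfbp2 (5615 ± 619 to 2688 ± 523, log2FC -1.06, FDR 0.000327), Igf2 (396 ± 121 to 197 ± 70.6, -1.01, FDR 0.00239) and the receptor Igf1r (3070.2 ± 201 to 2477 ± 202, -0.31, FDR 0.0205). In iPSCs 3 were higher and 1 lower by DESeq2, against 9.72% and 6.63% of all genes, while edgeR called only 1 of the 9. Igfbp4 went from 44.3 ± 7.77 to 266 ± 152 (2.59, FDR 8.59e-16).

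The genes around the 4 members moved in both directions or not at all. Besides the members, 13 genes with a start within 1 Mb of that of Polr2b were in the table, all on the side of Rest, for which distances are given as negative. In MEFs none was called by DESeq2 or edgeR (2 at an unadjusted p under 0.05), against 0.0285% of all genes called higher and 0.0143% lower. At day 3 only Spink2, a protease inhibitor whose start is at -98.7 kb, was called of 10 tested. Of all genes 0.374% were called higher and 0.119% lower at that stage. Its libraries had 2549, 2337 and 2144 normalised counts in WT and 3116, 3176 and 2928 in KO, a log2FC of 0.39 (SE 0.09, DESeq2 FDR 0.00397). It was not called by edgeR or without D3 WT replicate 3, D3 KO replicate 1 or D3 KO replicate 2. Of the 13 genes, 3 had an unadjusted p under 0.05 at day 3. Besides Spink2 these were Paics, higher in KO with libraries that overlapped (0.14, DESeq2 FDR 0.53), and C530008M17Rik. The latter was lower in all KO libraries than in WT (log2FC -0.78, SE 0.29) but did not pass (DESeq2 FDR 0.362). Like Noa1, Spink2 was low in WT MEFs (23.8 ± 5.02) and high at day 3 (2343 ± 203), and at day 7 it was lower in KO (-0.27, FDR 0.0111). The genes between Spink2 and Polr2b are Rest and Noa1, which overlapped at day 3.

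At day 5, 3 of 11 tested were higher and 1 lower, against 4.72% and 2.43% of all genes, and edgeR called 2. Of all 13 genes, 7 had an unadjusted p under 0.05. Paics (7569, 7764 and 6875 in WT, 9339, 9785 and 9169 in KO, log2FC 0.35, DESeq2 FDR 4.34e-07) and Ppat (0.31, FDR 0.0171), the head-to-head pair of purine synthesis genes at -358.8 and -358.6 kb, rose together, with Cep135, a centrosome gene (0.34, FDR 0.0301). C530008M17Rik, a protein-coding gene, was lower (471, 377 and 465 in WT, 253, 122 and 277 in KO, -1.01, FDR 0.0155). With 1 library left out the number of such genes called was 1 to 3 instead of 4, at 1 without D5 WT replicate 3 or D5 KO replicate 2 and at 2 without D5 WT replicate 2 or D5 KO replicate 3. At day 7 Paics (0.45, FDR 8.57e-13), Cep135 (0.41, FDR 0.000762) and Ppat (0.23, FDR 0.0473) were higher, and C530008M17Rik (-2.38, FDR 1.53e-12), A730089K16Rik (-1.958, FDR 0.00786) and Spink2 lower. These were 3 higher and 3 lower of 13 tested, against 13.3% and 16.1% of all genes. C530008M17Rik and A730089K16Rik share 1844 bases of exon on opposite strands, and Paics and Ppat 272, so their counts may not be independent. Exoc1, Srp72, Aasdh, Arl9, Hopx, Pdcl2 and Gm42666 were called in no KO contrast, although some were not tested at days 3 and 5 and in ESCs for low counts. In iPSCs and ESCs none of the 13 and 11 tested was called by either tool (3 and 1 at an unadjusted p under 0.05). Of all genes 9.72% and 5.82% were called higher in these lines and 6.63% and 4.29% lower. For iPSCs and ESCs the KO effects were also compared with each other, and no member differed (FDR 0.397 to 0.901, with 1.47% of all genes called).

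**Figure D5:**
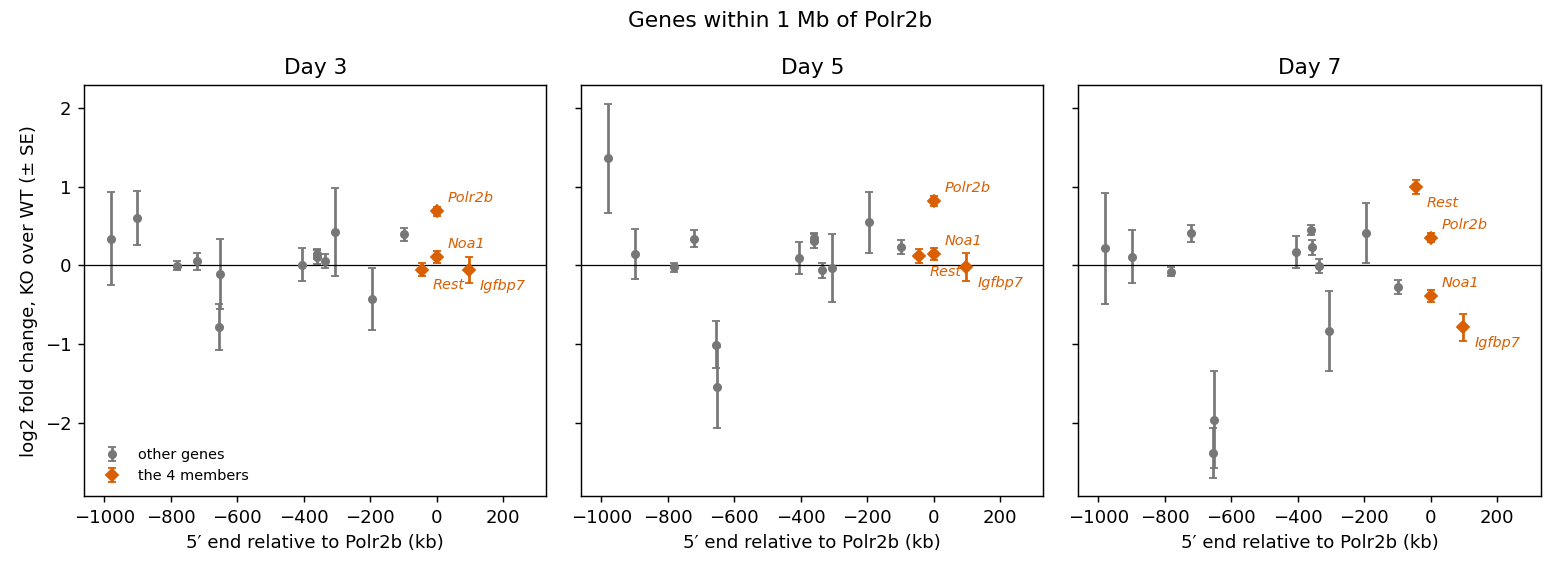
Log2 fold change of KO over WT with its SE against the distance of each gene's 5′ end from that of Polr2b in kb, at days 3, 5 and 7, with the 4 members as orange diamonds and the 13 other genes of the table in grey. At days 3 and 5, on which it was chosen, Polr2b stands above Noa1, Rest and Igfbp7. At day 7 Rest and Polr2b lie above 0 and Noa1 and Igfbp7 below.

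Across the 12 group means the 4 neighbours had no common pattern. Pearson's r of log2 normalised counts was 0.55 for Polr2b and Noa1, 0.06 for Polr2b and Rest and -0.40 for Polr2b and Igfbp7. It was -0.58 for Noa1 and Rest, 0.08 for Noa1 and Igfbp7 and -0.84 for Rest and Igfbp7. These are descriptions over 12 means that share stages and size factors. Among 14633 other genes with a mean of at least 50, the highest r were larger, which a search of that size over 12 means favours. The most alike to Noa1 were Pcolce2, Larp1b, Klf16, Faap24 and Adipor2, with r from 0.996 to 0.998. To Rest they were Gm49700, Gm40881, Pias2, Cbx1 and Asxl1 (0.994 to 0.997) and to Igfbp7 Filip1l, Tmem176b, Cd47, Hoxc10 and Pde4b (0.994 to 0.996). For Polr2b no gene was as close, and the first were Gm6823, Atad2b, Adi1, Ythdf2 and Alkbh2 (0.861 to 0.878). The 12 means include KO cells at days 3 and 5, on which Polr2b was chosen, so this in part restates the choice. By Spearman's rho none of the 5 was shared for Rest, Noa1 or Igfbp7 and 2 were for Polr2b.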

How the data were processed

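The count table deposited by the authors held raw read counts per gene. Per their methods, adapters were removed with Cutadapt, runs of a sample joined, reads mapped to GRCm38 with STAR and assigned with Rsubread; strand use and annotation release are not given in the sources used here. The deposited normalised signal table equalled counts divided by DESeq2 size factors. The deposited fold changes and p-values per comparison and the batch-corrected log matrix were not used; the labels give no library preparation batches. Groups and replicate numbers came from sample titles.

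Raw counts of all 36 libraries were fitted with DESeq2 1.42.0 in R 4.3.3, with 1 factor of 12 levels, the Wald test and no shrinkage of log2 fold changes. Calls are Benjamini-Hochberg FDR < 0.05 over all genes with default filtering. Positions are from GENCODE, which held 21390 of 21442 genes, and promoters from RefSeq on GRCm38.p6. For ratios, an exact permutation test (two-sided) was used. Counts of 21442 genes were simulated for day 7 with the same spread between replicates for every gene. Only 200 genes, with at least 100 normalised counts in WT, were changed. DESeq2 recovered 37 of 100 genes changed 1.5-fold and 99 of 100 changed 2-fold, with 17 false calls, and edgeR 4.0.16 recovered 38 and 100, with 2. In the data the spread differs between genes and 6177 genes were called at day 7, so these numbers do not give the power for single genes here.

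The members, gene lists and tests were chosen with earlier results of these data known. Named genes were the members, all genes of the table within 1 Mb, per list and comparison up to 4 called genes with groups apart and the lowest FDR, the 5 genes with the highest Pearson correlation to each member (log2 of normalised counts plus 1, mean of at least 50), and Zfp266; Polr2a and the values of uncalled subunits and of Polr1b and Polr3b were added after their values were seen. Alternatives were edgeR, TMM factors, a low-count filter, fits of the compared groups, a replicate block and leaving out each library. The variance between replicates was 3.16 to 102.7 times that of counting, so no libraries were copies. The highest values were those of MEF KO replicate 3 against replicates 1 (99.2) and 2 (102.7), while replicates 1 and 2 gave 4.38. KO contrasts in MEFs include this library. Deviations of WT and KO libraries with the same number correlated above 0.1 for every pair at day 3 (0.101 to 0.456) and day 7 (0.172 to 0.392). At day 5 the values were 0.268, 0.0897 and 0.222, and each WT library correlated best with the KO library of its number. They were -0.142 to 0.259 in iPSCs and near 0 in MEFs (-0.0249 to 0.0205) and ESCs (-0.0275 to 0.0129).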

Additional observations from a re-analysis of the deposited data

Results flagged for a closer look

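Differences between KO effects at 2 stages passed the interaction test of DESeq2 for 6 values, given as log2 differences. For Rest the effect at day 7 exceeded that in MEFs by 1.04 (SE 0.12, FDR 1.1e-14) and that in iPSCs by 1.05 (SE 0.12, FDR 1.01e-15). For Polr2b day 7 exceeded iPSCs by 0.43 (SE 0.08, FDR 1e-05). For Noa1 the difference of day 7 from MEFs was -0.40 (SE 0.12, FDR 0.0116). For Igfbp7 it was -0.62 from MEFs (SE 0.23, FDR 0.0401) and -1.72 from iPSCs (SE 0.45, FDR 0.00179), the latter with 5 to 20 reads per iPSC library. All 3 KO libraries of each gene at day 7 lay on the side of WT that its difference names.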

How the results depend on the processing

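No difference that passed the test changed direction in an alternative. Differences near 0 that did not pass or were not tested changed sign in some: Igfbp7 at day 3 (up to 0.05) and day 5 (up to 0.14), Rest at day 3 and in iPSCs (up to 0.01 each), Noa1 in MEFs and ESCs, Polr2b in ESCs, Igfbp7 in iPSCs against ESCs (up to 0.09), and the ratio of Polr2b to Noa1 in iPSCs and ESCs. At day 7 the KO effects of the 4 members passed in every alternative run, with values close to those given. Leaving out 1 library gave Noa1 in iPSCs -0.23 to -0.12 and Igfbp7 in iPSCs 0.36 to 1.27. Over all genes, calls in MEFs (9) were 5 in a fit of only the compared groups, 33 with the replicate block and 3 to 184 without 1 library (MEF WT replicate 2 left out gave 3, while MEF KO replicate 1 left out gave 184 and replicate 2 gave 106). At day 3 (79) they were 30 by edgeR, 308 with only the compared groups, 129 with the block and 32 to 84 without 1 library, and at day 5 (1265) 809 by edgeR, 2301 with only those groups and 664 to 1009 without 1 library. In iPSCs (3436) they were 615 with only those groups and 1874 to 4157 without 1 library, and in ESCs (1706) 1086 by edgeR and 845 to 1520 without 1 library. List genes numbered 2 at day 3 (0), 6 at day 5 (0) and 6 in iPSCs (18) with only the compared groups, 3 at day 5 with the block, and, without 1 library, 0 to 2 at day 5, 12 to 19 at day 7 (20, with 12 without D7 WT replicate 1 and 13 without D7 KO replicate 2), 11 to 21 in iPSCs and 5 to 9 in ESCs (8). Other locus genes numbered 0 at day 3 (1) and 2 at day 5 (4) by edgeR, 2 at day 3 and 1 in ESCs (0) with only the compared groups, 1 in iPSCs (0) with the block, and, without 1 library, 0 to 1 at day 3, 1 to 3 at day 5 and 0 to 2 in iPSCs. Among the members the block ended the call of Igfbp7 at day 7 against MEFs (FDR 0.0891) and no other. The causes were not tested. Counts of Igfbp7 in iPSCs and ESCs limit what can be said of it there.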
